A study of Saccharomyces cerevisiae with 18 samples.

Results

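The 10 genes described here encode the enzymes that attach ubiquitin to histone H2B in the budding yeast Saccharomyces cerevisiae, the complex that recruits them, and the histone methyltransferases that depend on that mark. They were taken by name from the 6205 open reading frames (ORFs) of the deposited table, and all 10 have values on all 18 arrays. They are the ligase genes RAD6 (YGL058W), BRE1 (YDL074C) and LGE1 (YPL055C), the Paf1 complex genes PAF1 (YBR279W), RTF1 (YGL244W), CTR9 (YOL145C), CDC73 (YLR418C) and LEO1 (YOR123C), and the methyltransferase genes SET1 (YHR119W) and DOT1 (YDR440W). Each array set total RNA of a null strain against total RNA of wild type strain UCC6389, from cells in YEPD, a rich medium with glucose. The null strains were UCC6390 (dot4 null, lacking the gene now named UBP10), UCC6392 (ubp8 null) and UCC6393 (double null, lacking both). The labels number 3 sets per genotype, each made of 2 arrays that differ in the channel given to the null RNA. The labels name no marker used for a deletion and do not say whether sets came from separate cultures or clones, so the p-values rest only on how much these sets differ, which may be technical.

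In yeast, Rad6 is the ubiquitin-conjugating enzyme and Bre1 the ubiquitin ligase of histone H2B, and Lge1 works with Bre1. The Paf1 complex travels with RNA polymerase II and, chiefly through Rtf1, brings the ligase to transcribed genes. Ubiquitinated H2B is needed for full methylation of H3K4 by Set1 and of H3K79 by Dot1, and Ubp8, a SAGA subunit, and Ubp10 take the ubiquitin off again. DOT1 and DOT4 both carry names from a screen for genes whose excess disrupts silencing at telomeres. The comparison asked whether transcripts of the writers differ from wild type in cells that lack 1 or both of the erasers.

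Values are given on the log2 scale as null over wild type. The deposited ratios were read as channel 2 over channel 1, since only then are the deleted genes low in their own null strains, and with the opposite order every sign here would turn. UBP10 lay between -5.57 and -4.27 on the 6 dot4 null arrays and between -5.58 and -3.88 on the 6 double null arrays. UBP8 lay between -3.25 and -2.31 on the 6 ubp8 null arrays and between -3.79 and -1.49 on the 6 double null arrays. Neither gene is a member. The label of 1 double null array, in set 3 with the null RNA in channel 2, gives the number UCC6392, which is that of the ubp8 null strain, and leaving that array out gave 4 called members in the double null, as with it, and 4 in place of 5 in the ubp8 null, where PAF1 lost its call in the shared fit. Each array was centred on its median, and the replicates are the 3 set means of a genotype. Errors are standard errors of the limma fit over the 9 set means, and a gene is called at a limma p under 0.05 after Benjamini-Hochberg adjustment over all 6205 ORFs. The arrays measured RNA of whole cultures, so fewer cells that express a gene and less of its RNA per cell cannot be told apart.

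Loss of either protease, or of both, left every one of the 10 transcripts close to its wild type level. The largest fitted difference in any null strain was BRE1 in the ubp8 null, 1.18-fold lower. In each genotype the 95% confidence interval of all 10 genes lay inside a 1.5-fold change in either direction, and the farthest limit was that of CTR9 in the ubp8 null, 1.26-fold lower. Such an interval was found for 95.2% of all ORFs in the dot4 null, for 98.0% in the ubp8 null and for 88.7% in the double null. The median size of the change, without its sign, was 0.12 over the members and 0.13 over all ORFs in the dot4 null. It was 0.07 against 0.11 in the ubp8 null and 0.07 against 0.17 in the double null. In no strain was the median change of the writers larger than that of all ORFs.

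**Figure D1:**
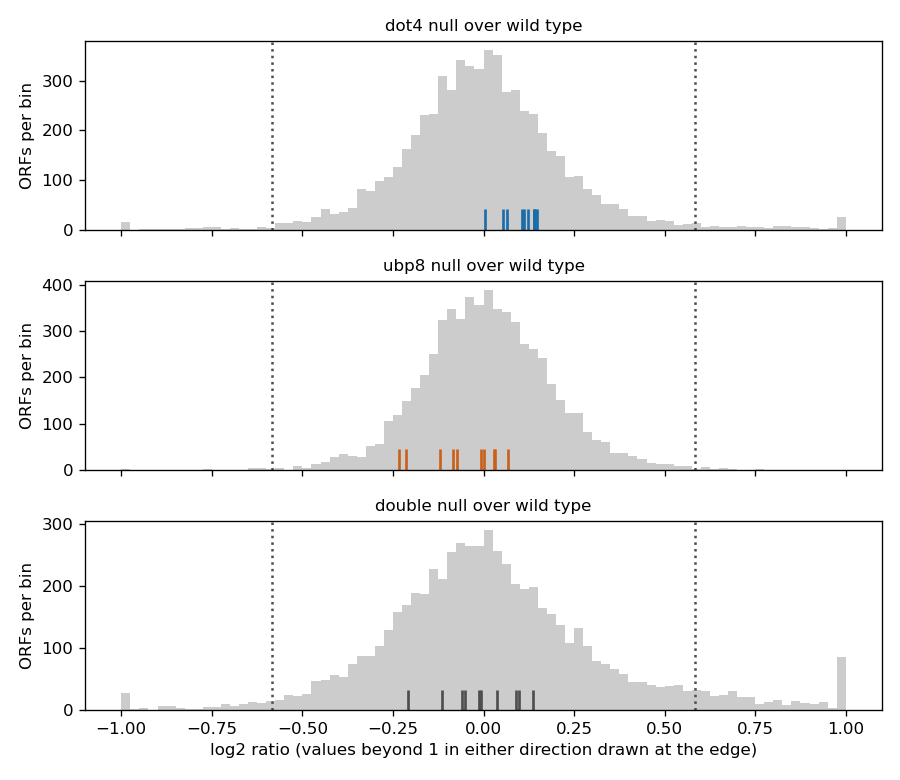
Distribution of the log2 ratio of null over wild type (horizontal axis) over the ORFs with all 9 set means, counted per bin (vertical axis), with the 10 members as coloured ticks and a 1.5-fold change in either direction as dotted lines. All ticks lie between -0.23 and 0.15, well inside the dotted lines.

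Small differences were nonetheless measurable. In the dot4 null 7 of the 10 genes rose and none fell, with the same count of 7 at an unadjusted p under 0.05. The same test called 29.9% of all ORFs higher and 32.1% lower there, 62.0% in all. In the ubp8 null 5 fell and none rose, also 5 at an unadjusted p under 0.05, against 28.7% of all ORFs lower, 30.0% higher and 58.7% in either direction. In the double null 3 rose and 1 fell, against 35.3% higher, 35.2% lower and 70.5% in either direction. The share of members called was thus close to the share of all ORFs in the dot4 null (7 of 10) and the ubp8 null (5 of 10) and below it in the double null (4 of 10). In the dot4 null 8 of the 10 members were above 0 in both orientations. All 10 means were above 0 in that strain, RAD6 only at 0.004, with a median of 0.12 against -0.01 over all ORFs. The median of the members was -0.04 against 0.00 in the ubp8 null and -0.01 against 0.00 in the double null. Without centring, 7 members were again called higher in the dot4 null, but there the median of all ORFs was itself 0.08, and 1804 ORFs were called higher and 563 lower, against 1857 higher and 1993 lower with centring.

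The counts rested on few sets. Without set 1, 2 or 3 the members called numbered 5, 3 and 3 in the dot4 null, 1, 1 and 4 in the ubp8 null and 4, 2 and 3 in the double null. Calls fell over all ORFs too. In the dot4 null 1575, 1420 and 1718 ORFs were then higher and 1709, 1506 and 1825 lower, against 1857 and 1993 with all sets. In the ubp8 null 1368, 1298 and 1780 were higher and 1303, 1209 and 1665 lower, against 1862 and 1778. In the double null 2028, 1874 and 2130 were higher and 2018, 1801 and 2103 lower, against 2189 and 2186. Only 3 calls against wild type were kept under all 13 alternative settings tried for them: the fall of RAD6 in the double null, the fall of BRE1 in the ubp8 null and the rise of CDC73 in the dot4 null. Without centring, RAD6, LGE1 and PAF1 lost their calls in the ubp8 null, and PAF1, SET1 and DOT1 lost theirs in the double null. Of all ORFs, 778 were then called higher and 804 lower in the ubp8 null, and 1532 and 1429 in the double null.

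RAD6 fell in the strain lacking both proteases. Its set means were -0.23, -0.20 and -0.20 in the double null, a mean of -0.21 ± 0.02 (adjusted p = 2.12e-05, n = 3), which is 1.16-fold lower. All 6 double null arrays lay below 0, from -0.30 through a median of -0.20 to -0.12. In the ubp8 null the set means were -0.13, -0.05 and -0.08 and all 6 arrays were again below 0. The mean there was -0.08 ± 0.02 (adjusted p = 0.0137), and the call ended without any one of the 3 sets, with means between -0.10 and -0.06. In the dot4 null RAD6 averaged near the wild type level, with set means of 0.00, 0.01 and 0.01. These join orientations of opposite sign, -0.05 with the null RNA in channel 1 and 0.06 with it in channel 2. The 95% interval in that strain ran from -0.05 to 0.06 (adjusted p = 0.898). The set means of the double null lay below those of both single nulls, but how many of all ORFs separate in this way was not counted. The test of the difference called 58.2% of all ORFs in either direction against the dot4 null, with 1814 ORFs lower. Against the ubp8 null it called 44.1% in either direction, with 1300 ORFs lower. For RAD6 the call against the dot4 null was kept under 11 of 12 alternatives. The call against the ubp8 null was kept under 5 of 12.

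BRE1 went in opposite directions in the single nulls. Its set means in the ubp8 null were -0.32, -0.22 and -0.16, with a mean of -0.23 ± 0.04 (adjusted p = 0.000929). In the dot4 null they were 0.09, 0.14 and 0.20, with a mean of 0.14 ± 0.04 (adjusted p = 0.0142), or 1.10-fold higher. All 6 arrays were below 0 in the ubp8 null and all 6 above 0 in the dot4 null, and BRE1 had the widest range of genotype means among the members, 0.37. The dot4 null call ended without set 2 (0.14, adjusted p = 0.0739) or without set 3 (0.11, adjusted p = 0.0932), and with the null RNA in channel 2 alone (0.12, adjusted p = 0.114). In the double null the set means of -0.18, 0.03 and -0.03 fell on both sides of 0, and the mean of -0.06 ± 0.04 was not called (adjusted p = 0.230).

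LGE1, the partner of BRE1, was lower in the ubp8 null at -0.12 ± 0.03 (adjusted p = 0.00666), with set means of -0.13, -0.18 and -0.05. That call ended without set 1 (-0.12, adjusted p = 0.0654) or without set 2 (-0.09, adjusted p = 0.111). In the dot4 null LGE1 was at 0.05 ± 0.03 (adjusted p = 0.155) and in the double null at -0.01 ± 0.03 (adjusted p = 0.873). All 3 ligase genes therefore fell in the ubp8 null, by 1.06-fold for RAD6, 1.18-fold for BRE1 and 1.09-fold for LGE1, against 28.7% of all ORFs.

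**Figure D2:**
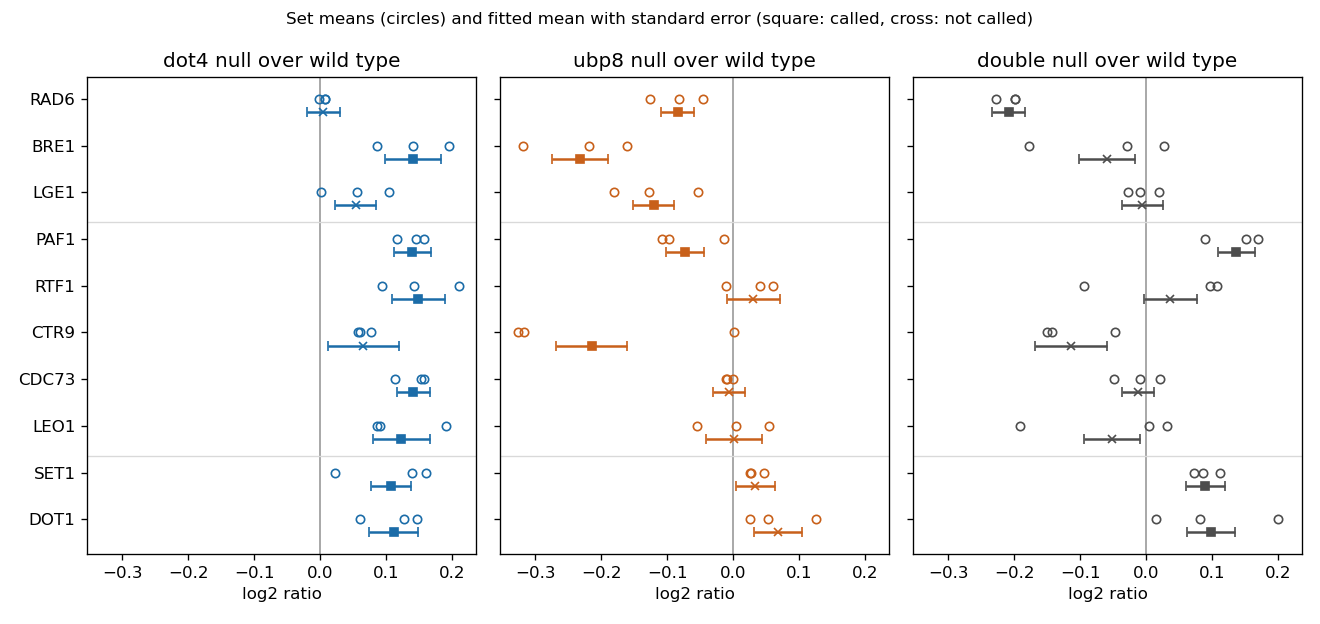
Log2 ratio of null over wild type (horizontal axis) for the 10 members (rows, ligase genes above, Paf1 complex in the middle, methyltransferases below) in each null strain. Open circles are the 3 set means and the symbol beneath them the fitted mean with its standard error, a square where called and a cross where not; in the dot4 null all 10 fitted means lie above 0, whereas the ligase genes lie below 0 in the ubp8 null.

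Of the 5 Paf1 complex genes, 4 rose slightly in the dot4 null, against 29.9% of all ORFs. RTF1, whose product stimulates H2B ubiquitination directly, had set means of 0.09, 0.14 and 0.21 there and a mean of 0.15 ± 0.04 (adjusted p = 0.00814). CDC73 had set means of 0.15, 0.11 and 0.16, a mean of 0.14 ± 0.02 (adjusted p = 0.000582), and PAF1 had 0.12, 0.16 and 0.14, a mean of 0.14 ± 0.03 (adjusted p = 0.0015). These 3 genes and LEO1 (0.12 ± 0.04, adjusted p = 0.0285) all lay between 0.12 and 0.15, with intervals that overlap. The calls of RTF1 (0.15 and 0.12) and LEO1 (0.14 and 0.09) ended without set 2 and without set 3. CTR9, the scaffold of the complex, was at 0.06 ± 0.05 (adjusted p = 0.316), although its 3 set means of 0.08, 0.06 and 0.06 were close together, since the fit takes 1 spread per gene from all genotypes. Fitted on the dot4 null alone it was called (adjusted p = 0.0376). Each set mean joins 2 orientations, and CTR9 averaged 0.135 there with the null RNA in channel 1 and -0.005 with it in channel 2.

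Of the 5 genes, 2 fell in the ubp8 null, against 28.7% of all ORFs, and 1 rose in the double null, against 35.3%. Differences between the Paf1 complex genes were not tested. In the ubp8 null CTR9 was 1.16-fold lower, with set means of -0.33, -0.32 and 0.00 and a mean of -0.21 ± 0.05 (adjusted p = 0.00604). Sets 1 and 2 were low. The 2 arrays of set 3 disagreed, at 0.20 with the null RNA in channel 2 and -0.20 with it in channel 1. The value was -0.32 without set 3 (adjusted p = 0.000309), -0.16 without set 1 (adjusted p = 0.0974) and -0.16 without set 2 (adjusted p = 0.0902). PAF1 was at -0.07 ± 0.03 (adjusted p = 0.0457), a call that ended without set 1 (-0.06) or set 2 (-0.06). RTF1 (0.03 ± 0.04), CDC73 (-0.01 ± 0.02) and LEO1 (0.00 ± 0.04) were not called, with adjusted p of 0.540, 0.831 and 0.985. The set means of CDC73 all lay between -0.01 and 0.00.

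In the double null PAF1 was the only Paf1 complex gene called. Its set means were 0.09, 0.15 and 0.17, all 6 arrays were above 0, and the mean was 0.14 ± 0.03 (adjusted p = 0.00124). CTR9 read -0.11 ± 0.05 (adjusted p = 0.0801), RTF1 0.04 ± 0.04, CDC73 -0.01 ± 0.02 and LEO1 -0.05 ± 0.04. The sets of RTF1 (-0.09, 0.10 and 0.11) and LEO1 (-0.19, 0.00 and 0.03) were split in this strain, set 1 being low for both. Over the 9 set means RTF1 and LEO1 had the highest Pearson correlation of the 45 pairs of members, 0.94, while RAD6 and PAF1 had the lowest, -0.05; all pairs share the same arrays, so these values are descriptions.

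The methyltransferase genes moved least between genotypes. SET1, which encodes the catalytic subunit of the H3K4 methyltransferase complex COMPASS, had a range of genotype means of 0.07, and DOT1, which encodes the H3K79 methyltransferase, a range of 0.04. SET1 had set means of 0.14, 0.02 and 0.16 in the dot4 null, a mean of 0.11 ± 0.03 (adjusted p = 0.00927). In the double null its set means were 0.09, 0.07 and 0.11, a mean of 0.09 ± 0.03 (adjusted p = 0.0186), and all 6 arrays were above 0. DOT1 was at 0.11 ± 0.04 in the dot4 null (adjusted p = 0.0223) and at 0.10 ± 0.04 in the double null (adjusted p = 0.0328), where its set means were 0.02, 0.08 and 0.20. Neither was called in the ubp8 null, SET1 at 0.03 ± 0.03 (adjusted p = 0.360) and DOT1 at 0.07 ± 0.04 (adjusted p = 0.136), though SET1 was above 0 on all 6 arrays. Every one of these 4 calls ended without at least 1 set. Without set 3 DOT1 dropped to 0.05 in the double null, and without set 2 it was at 0.11 and not called, while SET1 in that strain was not called without any one of the sets, at 0.08 to 0.10. In the dot4 null SET1 was at 0.09 without set 1 and 0.08 without set 3, and DOT1 at 0.10 without set 1 and 0.14 without set 2, none of them called.

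The genotypes were also compared with each other in the same fit. All 10 members were higher in the dot4 null than in the ubp8 null, and 5 of the differences were called. Of all 6205 ORFs, 58.1% were called in either direction, 1731 ORFs higher and 1872 lower. BRE1 differed most, by 0.37 ± 0.06 (adjusted p = 0.000362), followed by CTR9 (0.28 ± 0.08, adjusted p = 0.00913), PAF1 (0.21 ± 0.04, adjusted p = 0.00105), LGE1 (0.17 ± 0.04, adjusted p = 0.00582) and CDC73 (0.15 ± 0.04, adjusted p = 0.00432). The differences of BRE1 and PAF1 were called under all 12 alternatives run for them. The value of CTR9 was 0.22, 0.23 and 0.39 without set 1, 2 and 3, and called only in the last case. That of LGE1 was not called without set 1 (0.17) and that of CDC73 not without set 2 (0.16). The genotypes share the wild type strain, which both sides of these differences carry.

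Set against the dot4 null, the double null was lower for RAD6 (-0.21 ± 0.04, adjusted p = 0.000472), BRE1 (-0.20 ± 0.06, adjusted p = 0.0149), CDC73 (-0.15 ± 0.04, adjusted p = 0.00357) and LEO1 (-0.17 ± 0.06, adjusted p = 0.0297), 4 of 10. Of all 6205 ORFs, 58.2% were called in either direction, 1800 ORFs higher and 1814 lower. The difference of LEO1 was not called without any one of the sets (-0.22 to -0.12) or without the array with the doubtful strain number (-0.16, adjusted p = 0.0667), that of BRE1 not without set 3 (-0.19) and that of CDC73 not without set 1 (-0.13). Set against the ubp8 null, the double null was higher for BRE1 (0.17 ± 0.06, adjusted p = 0.0373) and PAF1 (0.21 ± 0.04, adjusted p = 0.00192) and lower for RAD6 (-0.12 ± 0.04, adjusted p = 0.0158), 3 of 10 against 44.1% of all ORFs. Without set 2 none of these 3 was called, with values of 0.14, 0.19 and -0.11, and RAD6 was not called without set 1 or set 3 either (-0.13 and -0.13), nor BRE1 without set 3 (0.19). SET1 and DOT1 were called in none of the contrasts between genotypes, and the 95% intervals of their difference between double null and dot4 null ran from -0.11 to 0.08 and from -0.13 to 0.10.

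The double null was also set against the sum of the single nulls, and 1 of the 10 departures was called. BRE1 read -0.06 in the double null beside a sum of -0.09, and CTR9 -0.11 beside a sum of -0.15. The called one was CDC73, at -0.01 beside 0.13, a difference of -0.15 ± 0.04 (adjusted p = 0.0373), against 20.3% of all ORFs. That call ended without any one of the sets (-0.16 to -0.12). LEO1 departed further, by -0.175 ± 0.07 (adjusted p = 0.120), and RAD6 by -0.13 ± 0.04 (adjusted p = 0.0598), neither past the threshold. At an unadjusted p under 0.05 these 3 genes passed.

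**Figure D3:**
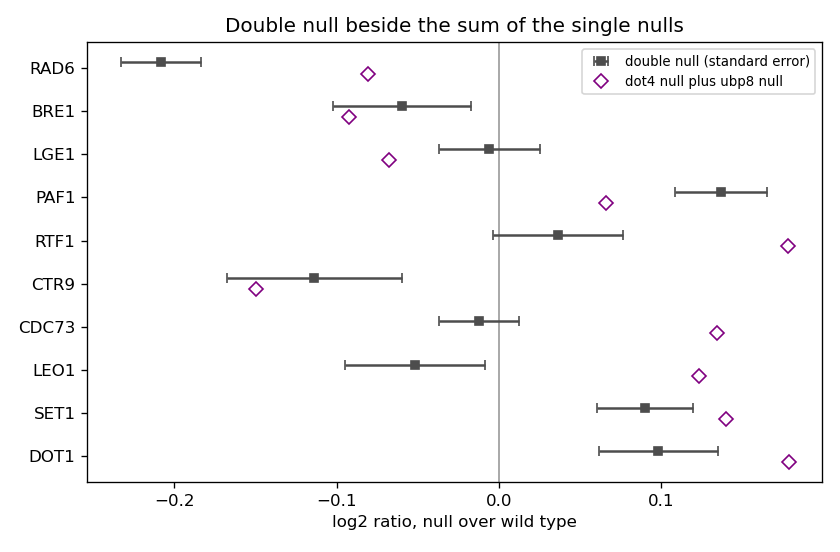
Log2 ratio of null over wild type (horizontal axis) in the double null (squares, with the standard error of the fit) and as the sum of the dot4 null and ubp8 null means (open diamonds) for each member. The 2 symbols lie close together for BRE1 and CTR9 and apart for CDC73, LEO1, RTF1 and RAD6, where the double null is the lower.

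The channel that held the null RNA mattered at this scale. The sign was the same in both orientations for 8 of the 10 members in the dot4 null, for 6 in the ubp8 null and for 7 in the double null. LGE1 in the double null averaged 0.12 with the null RNA in channel 1 and -0.14 with it in channel 2, each called on its own, and -0.01 together. LEO1 in the same strain averaged 0.08 and -0.18, in the same order. PAF1 averaged 0.25 and 0.03 in the dot4 null, 0.02 and -0.17 in the ubp8 null and 0.22 and 0.05 in the double null, so it stood higher with the null RNA in channel 1 in every strain, and its calls in the dot4 null and the double null were not made from channel 2 alone. SET1 in the dot4 null averaged 0.18 and 0.03, without a call from channel 2 alone, and the lower orientation holds its only array below 0 (-0.13). RAD6 in the double null (-0.17 and -0.25), BRE1 in the ubp8 null (-0.24 and -0.22) and CDC73 in the dot4 null (0.08 and 0.20) were called in each orientation.

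**Figure D4:**
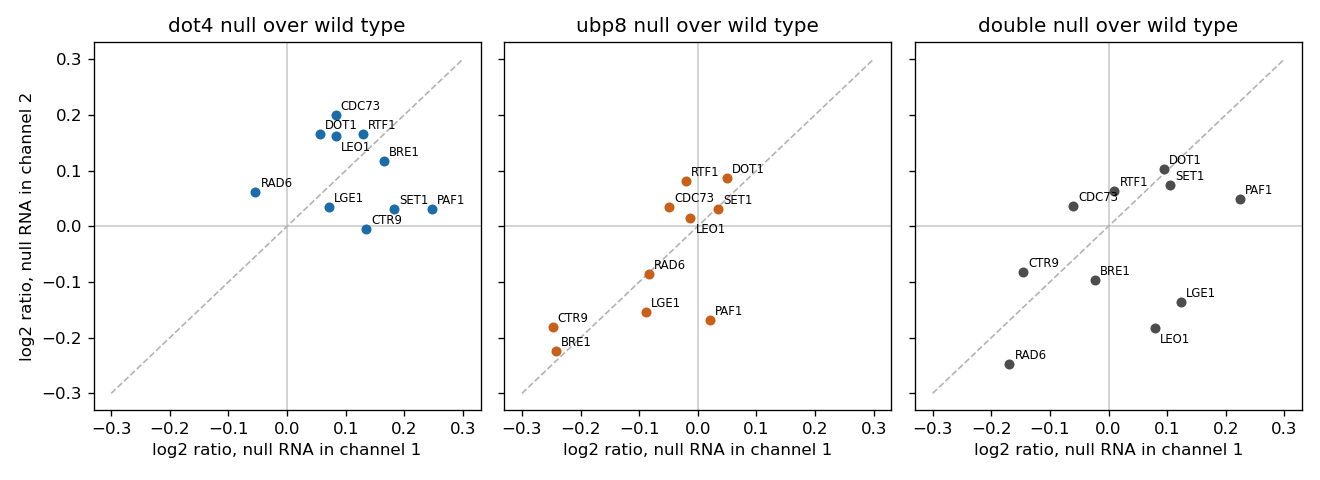
Mean log2 ratio of null over wild type of each member with the null RNA in channel 1 (horizontal axis) and in channel 2 (vertical axis), 3 arrays each, for the 3 null strains; the dashed line marks equal values. BRE1 in the ubp8 null and SET1 and DOT1 in the double null lie near the line, and LGE1 and LEO1 in the double null lie in the quadrant of opposite signs.

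The ORFs whose pattern over the 9 set means was most like that of BRE1, out of 6194 searched, were CNM1 (Pearson r = 0.98), CTI6 (0.98) and TMA46 (0.98). For CTR9, the member with the next widest range, they were IRC5 (0.98), GCD6 (0.98) and SRP72 (0.98). A correlation ignores the level: the dot4 null, ubp8 null and double null means were 0.50, 0.07 and 0.28 for CNM1, and 0.20, -0.20 and -0.01 for TMA46.

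The counts for other genes of the pathway are read against the share of all ORFs called in either direction, which was 62.0% for the dot4 null, 58.7% for the ubp8 null and 70.5% for the double null. Of the 7 other COMPASS subunit genes, 3 rose and 1 fell in the dot4 null, 2 rose and 2 fell in the ubp8 null, and 3 rose and 3 fell in the double null, so 4, 4 and 6 of 7 were called, near those shares. In the double null SHG1 was at 0.28 ± 0.03 and BRE2 at 0.17 ± 0.03 (adjusted p of 3.73e-06 and 0.000978). SWD2, whose product also belongs to the mRNA cleavage machinery, was at -0.24 ± 0.02 there (adjusted p = 5.65e-06). It was not the only subunit gene to fall in that strain, and SWD3 was called at -0.201 ± 0.03. Of 10 genes for the Bur and Ctk kinases and for elongation factors, 3 rose and 2 fell in the dot4 null, 1 rose and 3 fell in the ubp8 null, and 1 rose and 3 fell in the double null, so 5, 4 and 4 of 10 were called, below those shares. SPT5, which encodes a polymerase-bound platform for the Paf1 complex, fell in all 3 strains, with a dot4 null mean of -0.15 ± 0.03, a ubp8 null mean of -0.32 ± 0.03 and a double null mean of -0.52 ± 0.03 (adjusted p of 0.00079, 1.12e-05 and 6.02e-08). SPT6, a histone chaperone gene, was not called in the dot4 null (-0.06 ± 0.03) and fell in the other strains, with a ubp8 null mean of -0.25 ± 0.03 and a double null mean of -0.39 ± 0.03. Both were in the double null farther from wild type than any of the 10 members. Other genes of this list went the opposite way. CTK3 (0.28 ± 0.03), CTK1 (0.16 ± 0.04) and SGV1 (0.14 ± 0.03) were the risers in the dot4 null. POB3 (0.12 ± 0.04) was the riser in the ubp8 null and CTK2 (0.32 ± 0.04) that in the double null.

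The genes that supply ubiquitin all fell in the dot4 null, 5 of 5, against 32.1% of all ORFs lower there. In the ubp8 null 2 rose and 1 fell, against 30.0% higher and 28.7% lower, and the risers were RPS31 (0.17 ± 0.03, adjusted p = 0.00101) and UBI4 (0.12 ± 0.02, adjusted p = 0.00215). In the double null 4 fell, against 35.2% of all ORFs, and UBI4 rose (0.13 ± 0.02). RPL40A (-0.46 ± 0.05) and RPL40B (-0.47 ± 0.04) fell most in the double null, but these near-identical genes may not be told apart on arrays. RPL40B read 0.0563 in the double null with the null RNA in channel 2 alone, and in the dot4 null their fall (-0.31 and -0.24) was a called rise of 0.21 and 0.32 with the null RNA in channel 2 alone. UBA1, the ubiquitin-activating enzyme gene, had a dot4 null mean of -0.17 ± 0.02 and a double null mean of -0.07 ± 0.02. Of the genes for other ligases that use Rad6, RAD18 (0.07 ± 0.03), UBR1 (-0.115 ± 0.03) and UBR2 (-0.19 ± 0.03) were all called in the dot4 null, 3 of 3 against 62.0% of all ORFs, although RAD18 read -0.08 there with the null RNA in channel 2 alone and UBR2 0.03 with it in channel 1 alone. UBR2 (-0.17 ± 0.03) and UBR1 (-0.10 ± 0.03) fell in the double null, against 35.2% of all ORFs lower there, and RAD18 was not called (-0.015 ± 0.03). Of the SAGA deubiquitinase module, 2 of 3 listed genes were measured (SUS1 was not analysed here), and SGF73 fell in the ubp8 null (-0.25 ± 0.05, adjusted p = 0.00174) and in the double null (-0.13 ± 0.05, adjusted p = 0.0391), where it read 0.17 with the null RNA in channel 2 alone.

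The substrate genes stood farther from wild type than any writer in the double null. HTB1 and HTB2, which both encode H2B and share much of their sequence, rose in the double null by 0.52 ± 0.04 and 0.54 ± 0.04, while in the ubp8 null they read 0.07 ± 0.04 and 0.07 ± 0.04 and were not called. With the null RNA in channel 1 alone, HTB1 in the ubp8 null was a called fall of -0.27 (adjusted p = 0.0103). In the dot4 null both genes were lower (-0.11 ± 0.04 and -0.14 ± 0.04), a sign that turned with the null RNA in channel 2 alone. JHD2, the H3K4 demethylase gene, rose in the double null (0.33 ± 0.04, adjusted p = 1.93e-05). SET2, which encodes the H3K36 methyltransferase, fell in the ubp8 null (-0.22 ± 0.03, adjusted p = 0.000337) and in the double null (-0.11 ± 0.03, adjusted p = 0.0160).

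**Figure D5:**
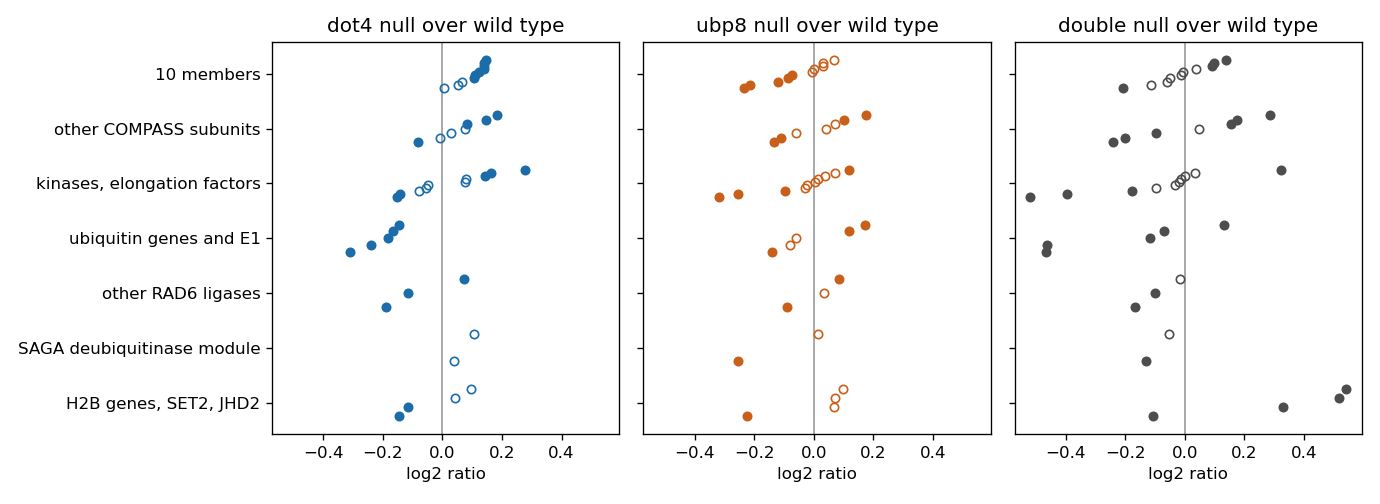
Log2 ratio of null over wild type (horizontal axis) of the 10 members and of the other listed pathway genes (rows) in the 3 null strains, 1 point per gene, filled where called. The members span -0.21 to 0.14 in the double null, where SPT5 reaches -0.52 and HTB2 0.54.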

How the data were processed

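The values deposited by the authors are log2 ratios, 1 for each ORF on each array. How background was corrected, how arrays were normalized and which array design was used is not given in the sources used here. Precision is limited by the number of arrays. The labels do not state the base of the logarithm, which was taken as 2 because 2 identical stand-in values of 16.6 are then a round power of 10. These were set to missing beside 9 empty values. Arrays were centred on their median, turned to null over wild type and averaged within a set, and means of the 3 genotypes were fitted to the 9 set means with limma 3.58.1 (lmFit, eBayes) in R 4.3.3, over 6205 ORFs. P-values were adjusted by Benjamini-Hochberg within each comparison, with a threshold of 0.05. Symbols came from a RefSeq table of assembly R64, which matched 5705 ORFs. The members and gene lists were chosen with earlier results of these data known. All 10 members and UBP10 and UBP8 are named, with some of the called genes of each other list and some of the uncalled values. The 3 ORFs most like each of the 2 members with the widest range are named as well. Alternatives changed centring, scaling, orientation, sets, arrays, the variance prior and the fit. No sequences were used here.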

Additional observations from a re-analysis of the deposited data

Results flagged for a closer look

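Among the 30 combinations of member and genotype, 4 held an array that stood apart from the other 5 by more than the 95% critical value of Dixon's test, and chance flags about 1 in 20 groups. CTR9 read 0.20 on the ubp8 null array of set 3 with the null RNA in channel 2, and the next highest array read -0.20. LGE1 read 0.026 on the ubp8 null array of set 3 with the null RNA in channel 1, next to -0.12. CTR9 read 0.021 on the double null array of set 2 with the null RNA in channel 2, next to -0.12. SET1 read -0.13 on the dot4 null array of set 2 with the null RNA in channel 2, next to 0.10.

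The effect of losing DOT4 and that of losing UBP8 differed by the test of their difference in limma for 5 members: BRE1 (0.37), LGE1 (0.17), PAF1 (0.21), CTR9 (0.28) and CDC73 (0.15). For CDC73 the double null departed from the sum of the single nulls by -0.15.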

How the results depend on the processing

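Of the comparisons of single members under alternative settings, 756 kept their direction and side of the threshold (values that stayed uncalled count here whatever their sign), 85 lost a call, 27 gained one and 2 reversed: LGE1 in the double null (0.12) and PAF1 in the ubp8 null (0.0213), both with the null RNA in channel 1 alone. The members called numbered 7 for the dot4 null, 5 for the ubp8 null, 4 for the double null, 5 for dot4 null minus ubp8 null, 4 for double null minus dot4 null, 3 for double null minus ubp8 null and 1 for double null minus the sum. Without centring the counts were 7, 2, 1, 4, 4, 0 and 0 in that order, from channel 1 alone 6, 2, 6, 6, 3, 3 and 0, and from channel 2 alone 3, 3, 3, 4, 4, 1 and 3. Of all ORFs, channel 1 alone called 2106, 1963, 2176, 1720, 1732, 1116 and 986 higher. It called 2169, 1984, 2174, 1927, 1630, 961 and 701 lower. Channel 2 alone called 1773, 1170, 1846, 1328, 1531, 1069 and 1075 of all ORFs higher. It called 1721, 1117, 1789, 1270, 1587, 898 and 1032 lower. Leaving out each set in turn gave 3 to 5, 1 to 4, 2 to 4, 3 to 5, 2 to 3, 0 to 3, and 0 in every case for the sum. Fewer of all ORFs were called in these fits as well. Fitted alone, the genotypes gave 8, 3 and 3, with 2011, 1802 and 2025 of all ORFs higher and 2183, 1670 and 1980 lower. Asking for a 1.5-fold change as well left 0 members everywhere. The set numbers were also used as a replicate block, giving 7, 5, 4, 6, 5, 3 and 0. Of all ORFs, that fit called 1852, 1866 and 2207 higher and 1973, 1780 and 2180 lower in the 3 null strains. Same-numbered sets of different genotypes had deviations that correlated between -0.26 and 0.27, against -0.33 to 0.30 for unlike numbers. All 6 same-numbered pairs with the dot4 null were above 0, and 10 of 18 sets matched best with their own number. The labels do not tie sets of different genotypes to each other, and some same-numbered pairs of the ubp8 null and double null were below 0, so the numbers were not taken as a pairing. The cause of these moves was not tested.

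Without centring, all ORFs split into 1432 higher and 481 lower for dot4 null minus ubp8 null (1731 and 1872 with centring), 664 and 1318 for double null minus dot4 null (1800 and 1814), 616 and 319 for double null minus ubp8 null (1438 and 1300) and 105 and 122 for the sum (739 and 522). Among other pathway genes, 16 values reversed. With the null RNA in channel 2 alone these were RPL40A in the dot4 null (0.21) and ubp8 null (0.35), RPL40B in the dot4 null (0.32), ubp8 null (0.48) and double null (0.0563), RAD18 in the dot4 null (-0.08) and ubp8 null (-0.0387), HTB1 (0.41) and HTB2 (0.17) in the dot4 null, SGF73 in the double null (0.17) and BRE2 in the ubp8 null (-0.027). With it in channel 1 alone they were RAD18 in the double null (0.13), UBR2 (0.032) and SWD3 (-0.005) in the dot4 null and HTB1 in the ubp8 null (-0.27). SWD1 in the dot4 null read 0.00767 without centring. Signal over background is unknown, since the deposited values are ratios.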
